A study of Mus musculus with 6 samples.

Results

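Expression of 10 genes that encode cytosolic sensors of RNA and DNA or their closest partners was measured in sorted leukaemia stem and progenitor cells. In these cells an inducible NIK allele was switched on by tamoxifen or left off. The members were taken by gene symbol, and all 10 were found among the 24015 genes listed and passed the filter on low counts that left 12729 genes tested. They are the RIG-I-like receptor genes Ddx58 (RIG-I), Ifih1 (MDA5) and Dhx58 (LGP2), the adaptor gene Mavs, the DNA-sensing pair Mb21d1 (cGAS) and Tmem173 (STING), the inflammasome sensor gene Aim2, the Z-nucleic acid sensor gene Zbp1, the kinase gene Eif2ak2 (PKR) and the RNA editing enzyme gene Adar.

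The LSPCT group holds 3 libraries of leukaemia stem and progenitor cells from tamoxifen-treated mice, and the LSPC group 3 libraries of such cells from untreated mice. In both groups the acute myeloid leukaemia was driven by MLL-AF9 and had been started from lin-cKit+ bone marrow progenitors of NIKERT2 mice, which carry Rosa-loxp-STOP-loxp-NIK and Rosa-CreERT2, and the mice had fully developed disease. Tamoxifen lets the Cre recombinase remove the stop in front of NIK, the kinase encoded by Map3k14; it was given to the LSPCT mice alone, so the actions of tamoxifen, Cre and NIK on these genes cannot be told apart. The sources used here do not give the dose and duration of tamoxifen, the age and sex of the mice, or whether replicates came from separate mice or separate primary leukaemias. The p-values therefore rest on a spread between libraries that may be technical.

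Cells use these proteins to detect nucleic acids in the cytosol. RIG-I and MDA5 bind double-stranded RNA and signal through MAVS on mitochondria, and cGAS binds DNA and makes a cyclic dinucleotide that activates STING; both routes converge on the kinases TBK1 and IKK-epsilon, which activate the interferon regulatory factors that switch on type I interferon. AIM2 assembles the inflammasome with ASC and caspase-1, ZBP1 recruits the kinase RIPK3, PKR phosphorylates the initiation factor eIF2 and slows translation, and ADAR edits double-stranded RNA so that MDA5 and PKR do not respond to it. Several of these genes are themselves induced by interferon through a promoter element known as ISRE, which interferon-activated transcription factors bind.

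Of the 10 genes, 6 rose, 1 fell and 3 did not pass (edgeR quasi-likelihood test, Benjamini-Hochberg adjustment over all genes tested, threshold 0.05, two-sided). Over all genes tested 8.96% rose and 8.24% fell, in all 17.2%. The genes that rose were the RNA receptor genes Ddx58, Ifih1 and Dhx58, Zbp1, Eif2ak2 and Adar. The gene that fell was Mavs, the adaptor of RIG-I and MDA5. The median log2 fold change was 0.58 over the 10 genes and -0.00 over all genes tested. These genes were chosen with earlier results of these libraries known.

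The sequences around ISRE-type letters in the promoters of 4 of the 6 genes that rose are shown for comparison, each 5′ to 3′ on the strand of its gene, with the matched letters in capitals (RefSeq, GRCm38.p6; the counts were made on another build).
Ddx58, chr4:40239867-40239896, minus strand: gtctaggttcaGAAACGAAActggatcccc
Ifih1, chr2:62646206-62646235, minus strand: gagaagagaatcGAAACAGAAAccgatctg
Eif2ak2, chr17:78882535-78882564, minus strand: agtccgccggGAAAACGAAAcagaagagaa
Adar, chr3:89730735-89730764, plus strand: gccttttcaagGAAACGAAAgtgaactctg
The searched windows ran from 250 bases before to 50 bases after each annotated start and were used for 7 of the 10 genes (not Dhx58, Zbp1 and Tmem173), 9 windows in all, of which Adar has 3. Ifih1 and Eif2ak2 hold GAAA repeated after a spacer of any 2 bases, and Ddx58 and the third Adar window hold GAAA repeated after a spacer of 1 base. Ddx58 holds the form with the 2-base spacer as well, on the opposite strand, at bases 3 to 12 from the start. On either strand, the form with 2 spacer bases occurs in 3.44% and that with 1 in 3.17% of the 32851 promoter windows searched in the same way. The windows of Aim2, Mb21d1 and Mavs and the other Adar windows hold neither. The NF-kB type letters, GGG and TTTCC with any 2 bases between them, were in none of the 9 windows, against 1.63% of all windows. At so low a share, none in 9 windows is the usual outcome and does not show that these genes lack such sites. The shorter pair AA and GAAA with 2 bases between was in the windows of Ddx58, Ifih1 and Eif2ak2 and the third of Adar, overlapping the letters above, against 23.9% of all windows, and TTC and GAA with 3 bases between were in those of Eif2ak2 and Adar, against 8.3%. The motifs were chosen after the sequences and the values had been seen, and a match is a description of letters, not of binding.

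For the gene with the largest rise and the gene that fell, the 250 bases before the start are given in full, with the form with 1 spacer base in capitals.
Ddx58, chr4:40239826-40240075, minus strand: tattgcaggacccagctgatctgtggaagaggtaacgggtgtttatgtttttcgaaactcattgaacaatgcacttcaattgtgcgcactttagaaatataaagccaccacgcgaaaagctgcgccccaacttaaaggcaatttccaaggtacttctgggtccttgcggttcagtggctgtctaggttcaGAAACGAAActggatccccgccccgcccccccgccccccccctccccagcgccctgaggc
Mavs, chr2:131233813-131234062, plus strand: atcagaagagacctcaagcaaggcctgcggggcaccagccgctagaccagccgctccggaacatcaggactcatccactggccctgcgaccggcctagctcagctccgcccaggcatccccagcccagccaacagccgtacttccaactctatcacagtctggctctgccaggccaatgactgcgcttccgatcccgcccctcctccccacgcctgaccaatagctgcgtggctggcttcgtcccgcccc

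Total counts were 19999071 to 22454753 in LSPCT libraries and 20410001 to 26773176 in LSPC libraries, and a count of 0 allows up to 0.111 to 0.150 CPM (counts scaled to library size, with TMM factors) in a library, for counting error only. Map3k14, the gene of NIK, stood at 159.9 ± 30.3 CPM in LSPCT libraries and 26.5 ± 2.26 CPM in LSPC libraries (SD, n = 3 each). It was thus not silent in LSPC libraries, and counts per gene symbol do not tell the inducible copy from the endogenous gene. Of the progenitor markers, Kit (153 ± 35.8 and 129 ± 10.5 CPM) and Myb (724 ± 71.1 and 784 ± 20.8 CPM; LSPCT and LSPC, SD, n = 3 each) were abundant in both groups, and Flt3 was the marker of 6 that fell (39.2 ± 6.60 and 89.7 ± 12.8 CPM). Macrophage markers moved with the groups: 8 of 9 rose, and their summed level was 636 to 1454 CPM in LSPCT libraries and 153 to 178 CPM in LSPC libraries, most of it Vcam1 and Emr1, and highest in LSPCT replicate 1. Late neutrophil markers, of which none of 6 passed, summed to 49.6 to 87.3 CPM in LSPCT libraries and to 63.7, 15.5 and 367 CPM in LSPC replicates 1 to 3. Plasmacytoid dendritic markers summed to 87.9 to 132 CPM in LSPCT libraries and 84.9 to 97.1 CPM in LSPC libraries; Ccr9 alone of 4 tested rose (4.26 ± 1.24 and 0.882 ± 0.23 CPM; LSPCT and LSPC, SD, n = 3 each; edgeR adjusted p = 0.00499), and Klk1 was at 0 in every library. Conventional dendritic markers, which share Flt3 with the progenitor list, summed to 62.7 to 74.5 CPM in LSPCT libraries and 86.4 to 109 CPM in LSPC libraries, and Flt3 was the one of 4 tested that fell. The lower sum in LSPCT libraries came mainly from Flt3. The other tested genes, Xcr1, Zbtb46 and Itgax, did not pass but were higher in every LSPCT library than in any LSPC library. Itgax, the most abundant of these, stood at 28.6 ± 4.38 CPM in LSPCT libraries and 10.4 ± 9.58 CPM in LSPC libraries (SD, n = 3 each). Of 6 B, 5 T, 5 natural killer and 6 erythroid markers, 2, 4, 1 and 1 had enough counts to be tested, in that order, and none passed. Of those tested, Cd3e and Gzma were higher in every LSPCT library than in any LSPC library (edgeR adjusted p = 0.0569 and 0.0741), and the others overlapped. B cell markers summed to 27 to 49.1 CPM in LSPCT libraries and 40.7 to 45.6 CPM in LSPC libraries, nearly all of it Cd79b, with Pax5 at 0. T cell markers summed to 8.44 to 24.9 CPM in LSPCT libraries, highest in replicate 1, and to 5.61 to 8.68 CPM in LSPC libraries. Natural killer markers summed to 1.67 to 2.50 CPM in LSPCT libraries and 0.805 to 1.15 CPM in LSPC libraries, without overlap and with Ncr1 at 0. Erythroid markers summed to 0.708 to 1.25 CPM in LSPCT libraries and 0.720 to 1.15 CPM in LSPC libraries, with the globin genes Hbb-b1, Hba-a1 and Hba-a2, which have close copies, at 0. The part of these other cells in the results was not tested. In bulk RNA, fewer cells of a type and less RNA per cell cannot be told apart.

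**Figure D1:**
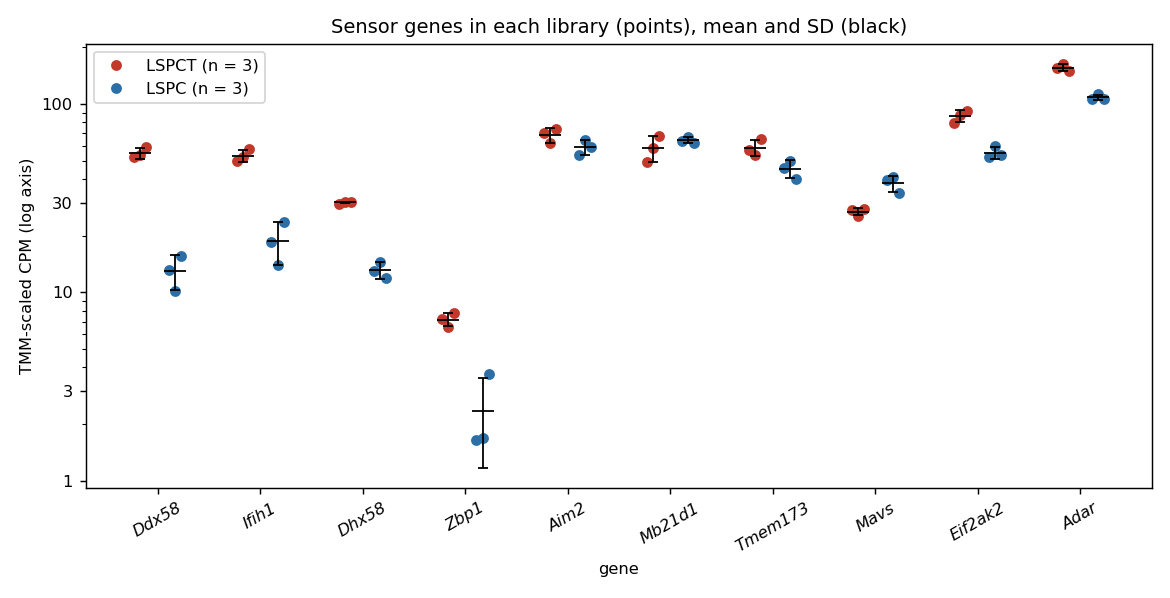
TMM-scaled CPM (log axis) of each sensor gene in the 3 LSPCT (red, left) and 3 LSPC (blue, right) libraries; each point is a library, and the black line and bars are the mean and SD. The groups do not overlap for 8 of the 10 genes, against 37.7% of all genes tested, and overlap for Aim2 and Mb21d1.

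Ddx58 encodes RIG-I, the receptor for short double-stranded RNA with a phosphorylated 5′ end. It stood at 52.3, 53.3 and 58.8 CPM in LSPCT replicates 1 to 3, against 13.2, 10.2 and 15.6 CPM in LSPC replicates 1 to 3. Every LSPCT library was above every LSPC library. The log2 fold change was 2.08 with a standard error (SE) of 0.16 (edgeR adjusted p = 0.000135), the largest of the 10 genes, and ranked 367 among the 12729 genes tested, counted from the highest.

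Ifih1 encodes MDA5, the receptor for long double-stranded RNA. It stood at 49.5, 52.5 and 57.5 CPM in LSPCT replicates 1 to 3, against 18.6, 14.1 and 23.6 CPM in LSPC replicates 1 to 3. The groups did not overlap, and the LSPC libraries varied more, with their highest value 1.68 times their lowest against 1.16 times in LSPCT libraries. Its log2 fold change was 1.502 (SE 0.18, edgeR adjusted p = 0.00113).

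Dhx58 encodes LGP2, a RIG-I-like receptor without signalling domains that modulates the other two. It stood at 29.6, 30.1 and 30.3 CPM in LSPCT replicates 1 to 3, against 12.9, 14.6 and 11.9 CPM in LSPC replicates 1 to 3. The LSPCT values lay within 1.02 times of each other, the narrowest spread among the 10 genes in that group, and all were above the LSPC values. Its log2 fold change was 1.19 (SE 0.12, edgeR adjusted p = 0.000523). In the GENCODE M21 annotation 141 of its 2412 exon bases are shared with the antisense gene Dhx58os; the strand setting of the counting is not given in the sources used here.

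The receptor genes were also set against each other within libraries. The ratio of Ddx58 to Ifih1 counts within a library, which no scaling factor enters, was 1.06, 1.02 and 1.02 in LSPCT replicates 1 to 3, against 0.711, 0.723 and 0.659 in LSPC replicates 1 to 3. The ratio of Ddx58 to Dhx58 counts was 1.83 ± 0.10 in LSPCT libraries and 1.01 ± 0.30 in LSPC libraries (SD, n = 3 each). Neither ratio overlapped between the groups (exact two-sided permutation test, p = 0.1, the smallest that 20 splits allow, adjusted p = 0.133 over 8 ratios chosen after the values were seen). For Ifih1 to Dhx58 the groups overlapped, at 1.77 ± 0.12 in LSPCT libraries and 1.46 ± 0.51 in LSPC libraries (SD, n = 3 each; exact permutation p = 0.4).

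Mavs encodes the mitochondrial adaptor that RIG-I and MDA5 both need, and it fell. It stood at 27.2, 25.5 and 27.7 CPM in LSPCT replicates 1 to 3, against 39.3, 40.8 and 33.8 CPM in LSPC replicates 1 to 3. All LSPCT libraries were below all LSPC libraries. Its log2 fold change was -0.50 (SE 0.10, edgeR adjusted p = 0.0144), and 10.4% of tested genes had a lower one. It missed the threshold without LSPC replicate 1 (log2 -0.48, edgeR adjusted p = 0.0774) or LSPC replicate 2 (log2 -0.45, edgeR adjusted p = 0.0650). With the adaptor lower and the receptor higher, the ratio of Mavs to Ddx58 counts was 0.490 ± 0.027 in LSPCT libraries and 3.05 ± 0.92 in LSPC libraries (SD, n = 3 each; exact permutation p = 0.1, the smallest the design allows, adjusted p = 0.133). Since each gene alone separated the groups, in opposite directions, this ratio could not overlap and adds no separate evidence.

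**Figure D2:**
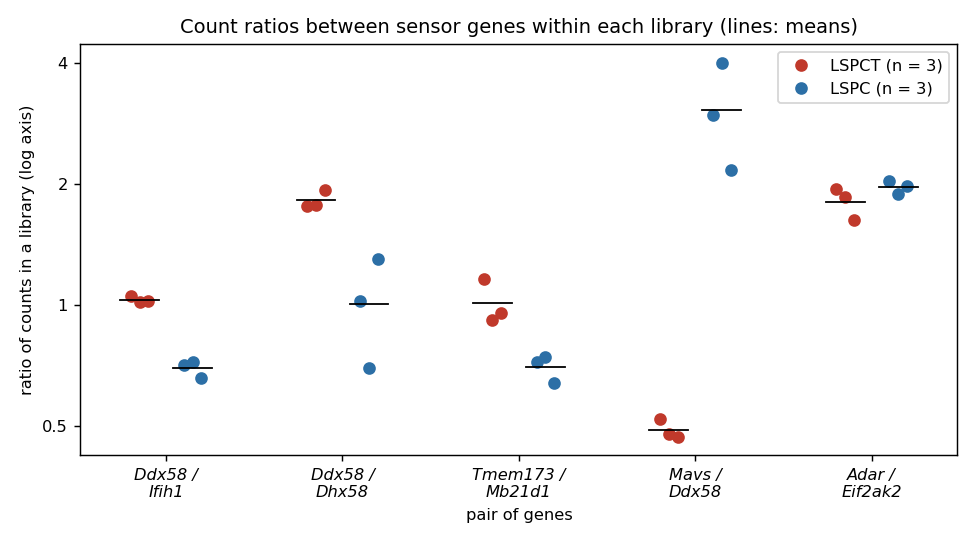
Ratios of counts between pairs of sensor genes within each library (log axis), LSPCT red and left, LSPC blue and right; each point is a library and each line a group mean. Ddx58 over Ifih1, Ddx58 over Dhx58 and Tmem173 over Mb21d1 are higher in all LSPCT libraries, Mavs over Ddx58 is lower in all of them, and Adar over Eif2ak2 overlaps.

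The genes of the cytosolic DNA sensors Mb21d1, Tmem173 and Aim2 did not pass. Mb21d1 encodes cGAS, which makes the second messenger for STING. It stood at 49.4, 58.1 and 68.0 CPM in LSPCT replicates 1 to 3, against 63.8, 67.1 and 62.4 CPM in LSPC replicates 1 to 3. The groups overlapped, since LSPCT replicate 3 was above every LSPC library and replicate 1 below all of them. The log2 difference was -0.14 (95% interval -0.42 to 0.14, edgeR adjusted p = 0.483).

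Tmem173 encodes STING, the adaptor in the endoplasmic reticulum. It stood at 57.3, 53.4 and 64.9 CPM in LSPCT replicates 1 to 3, against 46.0, 49.9 and 40.0 CPM in LSPC replicates 1 to 3. The groups did not overlap, but the log2 difference of 0.37 missed the threshold (SE 0.11, edgeR adjusted p = 0.0608). It passed with DESeq2 (adjusted p = 0.0290), with upper quartile scaling (edgeR adjusted p = 0.0491) and with the stricter filter (edgeR adjusted p = 0.0492). The ratio of Tmem173 to Mb21d1 counts was 1.16, 0.919 and 0.954 in LSPCT replicates 1 to 3, against 0.721, 0.744 and 0.641 in LSPC replicates 1 to 3 (exact permutation p = 0.1, the smallest the design allows, adjusted p = 0.133).

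Aim2 encodes a DNA sensor of the PYHIN family, which has close copies among which reads may have been split in counting. It stood at 69.8, 61.7 and 73.9 CPM in LSPCT replicates 1 to 3, against 53.6, 64.6 and 58.8 CPM in LSPC replicates 1 to 3. LSPCT replicate 2 fell inside the LSPC range, so the groups overlapped. The log2 difference was 0.21 (95% interval -0.03 to 0.46, edgeR adjusted p = 0.213).

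Zbp1 was the least abundant of the 10 genes, with 142 to 175 counts in LSPCT libraries and 33 to 99 counts in LSPC libraries. It stood at 7.19, 6.59 and 7.74 CPM in LSPCT replicates 1 to 3, against 1.64, 1.69 and 3.67 CPM in LSPC replicates 1 to 3. All LSPCT libraries were higher, and LSPC replicate 3 stood above the other LSPC libraries. The log2 fold change was 1.61 (SE 0.35, edgeR adjusted p = 0.0172), and it missed the threshold without LSPCT replicate 3 (log2 1.56, edgeR adjusted p = 0.0583), LSPC replicate 1 (1.42, 0.0705) or LSPC replicate 2 (1.42, 0.0628).

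PKR and ADAR act on opposite sides of the response to double-stranded RNA, and both genes rose. Eif2ak2, which encodes PKR, stood at 79.5, 87.6 and 92.1 CPM in LSPCT replicates 1 to 3, against 52.1, 59.6 and 53.7 CPM in LSPC replicates 1 to 3. Its log2 fold change was 0.65 (SE 0.10, edgeR adjusted p = 0.00351). Adar stood at 154.8, 163 and 149.7 CPM in LSPCT replicates 1 to 3, against 106.4, 113 and 106.4 CPM in LSPC replicates 1 to 3. Neither gene overlapped between the groups. The log2 fold change of Adar was 0.52 (SE 0.08, edgeR adjusted p = 0.00404). Its exons share 1365 of 6000 bases with Chrnb2 on the opposite strand, which had only 37 to 55 counts in LSPCT libraries and 61 to 70 counts in LSPC libraries. The ratio of Adar to Eif2ak2 counts overlapped, at 1.81 ± 0.17 in LSPCT libraries and 1.97 ± 0.08 in LSPC libraries (SD, n = 3 each; exact permutation p = 0.2). Counts per gene do not tell the long, interferon-inducible ADAR form from the short one.

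**Figure D3:**
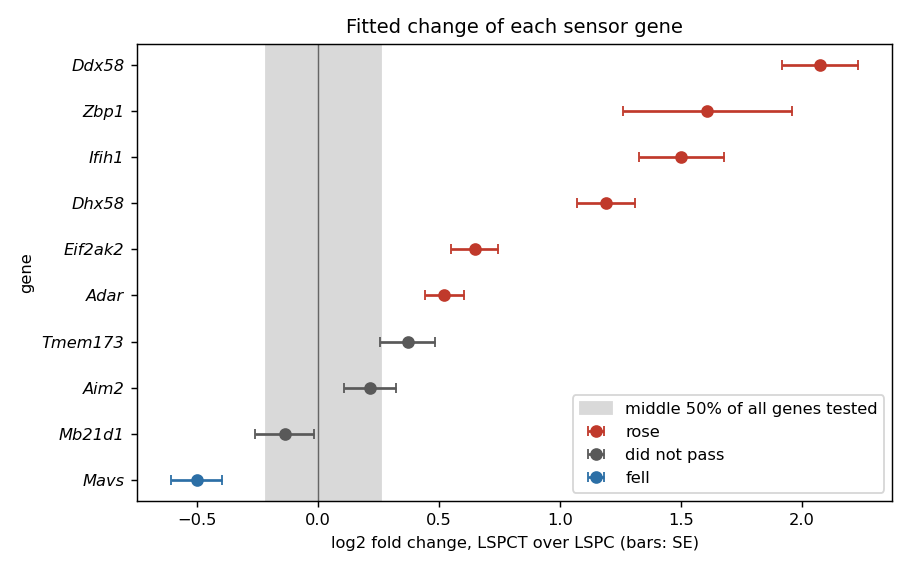
Fitted log2 fold change, LSPCT over LSPC, of each sensor gene with its SE; the grey band holds the middle 50% of all genes tested (log2 -0.22 to 0.26). Ddx58, Zbp1, Ifih1 and Dhx58 lie above 1, Aim2 and Mb21d1 lie inside the band, and Mavs alone lies below it.

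Without overlap between the groups, 7 of the 10 genes were higher and 1 was lower in LSPCT libraries; of all genes tested, 18.1% were higher and 19.6% lower without overlap, in all 37.7%. Set per kilobase of merged exon (GENCODE M21 lengths, another annotation than that of the counts), the order of levels among the genes differed between groups. In LSPCT libraries Adar (26.0 ± 1.09 CPM per kb), Tmem173 (25.4 ± 2.55) and Aim2 (24.1 ± 2.18) led, and their ranges overlapped over the libraries. Eif2ak2 (20.04 ± 1.49), Mb21d1 (14.3 ± 2.28), Ddx58 (14.1 ± 0.90), Dhx58 (12.4 ± 0.14), Ifih1 (9.72 ± 0.74), Mavs (8.66 ± 0.38) and Zbp1 (3.31 ± 0.27) followed (CPM per kb in LSPCT libraries, SD, n = 3). Of these neighbours, the range of Mb21d1 overlapped those of Ddx58 and Dhx58, and the others did not overlap. In LSPC libraries Aim2 (20.8 ± 1.94 CPM per kb), Tmem173 (19.7 ± 2.18), Adar (18.1 ± 0.60) and Mb21d1 (15.8 ± 0.59) led, of which Tmem173 overlapped with both Aim2 and Adar. They were followed by Eif2ak2 (12.8 ± 0.92) and Mavs (12.3 ± 1.19), whose ranges overlapped, and by Dhx58 (5.45 ± 0.55). Ifih1 (3.43 ± 0.88) and Ddx58 (3.35 ± 0.70) overlapped, and Zbp1 was lowest at 1.08 ± 0.54 CPM per kb in LSPC libraries (SD, n = 3).

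LSPCT replicate 1, with the highest macrophage sum, differed from the mean of LSPCT replicates 2 and 3 by log2 -0.10 for Ddx58, -0.15 for Ifih1, -0.03 for Dhx58 and 0.01 for Zbp1. For the other members this difference was -0.35 for Mb21d1, -0.18 for Eif2ak2, -0.04 for Tmem173, -0.01 for Adar, 0.04 for Mavs and 0.05 for Aim2. Without that library the same number of members rose and fell, with log2 fold changes of 2.11 for Ddx58 and 1.55 for Ifih1 (edgeR adjusted p = 0.000105 and 0.000911). The macrophage difference remained in that run. The sums were 636 and 679 CPM in LSPCT replicates 2 and 3 against 153 to 178 CPM in LSPC libraries. Most of each sum was Vcam1 (456 and 457 CPM in LSPCT replicates 2 and 3) and Emr1 (142 and 147 CPM). The other markers were lower, C1qa for example at 8.03 and 14.3 CPM in these 2 libraries. Whether Vcam1 and Emr1 came from macrophages or from other cells was not tested. The part of macrophages in the LSPCT levels was not tested. Among LSPC libraries, Ddx58, Ifih1 and Zbp1 were highest in replicate 3, where the late neutrophil markers summed highest. Dhx58, Mavs, Tmem173, Mb21d1 and, by a narrow margin, Adar were lowest in that library. The part of late neutrophils in the LSPC levels was not tested. Without LSPC replicate 3, 6 members rose and 1 fell.

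Partner genes were counted in 8 lists, chosen with earlier results known. Each count is to be set against the shares over all genes tested, of which 8.96% rose and 8.24% fell, in all 17.2%. Among 16 genes that carry the signal from the sensors, 3 rose and none fell (median log2 0.22), a passing share near 17.2%. The transcription factor gene Irf7, which amplifies type I interferon, had 32.6 ± 6.24 CPM in LSPCT libraries and 5.83 ± 1.54 CPM in LSPC libraries. Ikbke, the gene of IKK-epsilon, had 86.1 ± 21.2 CPM in LSPCT libraries and 42.3 ± 4.30 CPM in LSPC libraries, and Tank, a scaffold of these kinases, had 77.2 ± 16.99 CPM in LSPCT libraries and 41.3 ± 4.27 CPM in LSPC libraries (SD, n = 3 each; edgeR adjusted p = 0.000327, 0.00713 and 0.00779). The kinase gene Tbk1 (log2 -0.05, edgeR adjusted p = 0.745) and Irf3 (-0.06, 0.786) did not pass.

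Of the 8 tested genes of the type I interferon loop, 4 rose and none fell (median log2 0.41). Irf9, the DNA-binding part of the factor that binds ISRE, had 80.4 ± 8.59 CPM in LSPCT libraries and 39.2 ± 0.29 CPM in LSPC libraries (SD, n = 3 each; edgeR adjusted p = 0.000395). The receptor kinase gene Tyk2 (log2 0.59) and the receptor gene Ifnar1 (0.47) rose too, and Stat2 (-0.14, edgeR adjusted p = 0.421) did not pass. Ifnar1 did not pass without LSPCT replicate 2 or 3 or LSPC replicate 1 or 3 (edgeR adjusted p 0.0502 to 0.0865). No count of Ifnb1 was found in any library. Of 21 interferon genes listed, chosen by symbol after values were seen, 19 were at 0 in every library, and Ifng had 5 counts over the LSPCT libraries and 11 over the LSPC libraries, and Ifnz 1 and 9. Counts of 0 allow up to 3 counts a library, and the Ifna genes are close copies of each other, whose reads would be missing here if reads with several positions were dropped in counting.

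**Figure D4:**
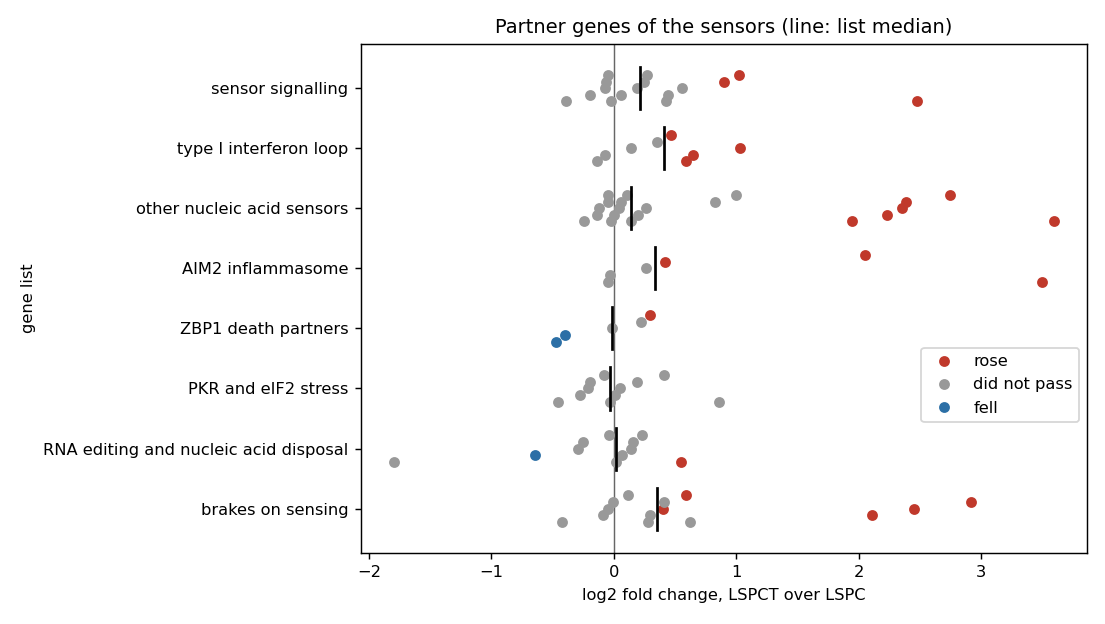
Fitted log2 fold change, LSPCT over LSPC, of each tested gene in the 8 partner lists, red where it rose, blue where it fell and grey where it did not pass; the black line is the list median. No gene of the PKR and eIF2 list passed, and the list medians lie between -0.03 and 0.41.

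Among 21 tested genes of other nucleic acid sensors, 6 rose and none fell (median log2 0.14). The helicase-like gene Ddx60 had 34.6 ± 8.29 CPM in LSPCT libraries and 6.62 ± 0.78 CPM in LSPC libraries (SD, n = 3 each; log2 2.38, edgeR adjusted p = 0.000258). The PYHIN genes Ifi203 (log2 2.35) and Mndal (1.95) rose, with the same reservation on close copies as Aim2, as did Xrcc5 (2.23), which encodes the Ku80 subunit of the DNA end-binding Ku dimer. Xrcc6, the gene of its partner Ku70, differed by log2 0.14 (edgeR adjusted p = 0.366). The RNA helicase genes Dhx9 (log2 0.00) and Ddx3x (-0.02) did not pass.

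On the AIM2 inflammasome list, 3 of 6 genes rose and none fell (median log2 0.34). Casp4, the gene of the inflammatory caspase that senses lipopolysaccharide, had 48.4 ± 6.08 CPM in LSPCT libraries and 11.6 ± 0.56 CPM in LSPC libraries (SD, n = 3 each; edgeR adjusted p = 4.35e-05). Casp1 (log2 0.42, edgeR adjusted p = 0.0241) and the cytokine gene Il18 rose. Il18 stood at 7.39, 0.835 and 2.12 CPM in LSPCT replicates 1 to 3 and at 0.447, 0.0847 and 0.371 CPM in LSPC replicates 1 to 3, so it was highest in the library with the highest macrophage sum. Without that library Il18 still rose (log2 2.29, edgeR adjusted p = 0.0405). The macrophage sums of the remaining LSPCT libraries, mostly Vcam1 and Emr1, were also above those of all LSPC libraries. The adaptor gene Pycard, which encodes ASC, differed by log2 -0.03 and the pore gene Gsdmd by -0.04 (edgeR adjusted p = 0.849 and 0.822). Leaving out LSPCT replicate 3 or any LSPC library left Casp4 as the called gene of the list. With limma voom, Il18 was not called (adjusted p = 0.0908).

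The genes that ZBP1 works with went both ways, 1 of 5 rising and 2 falling (median log2 -0.01). Fadd, a death adaptor gene, rose (log2 0.29, edgeR adjusted p = 0.0412), and Ripk1 (-0.47, 0.00680) and Mlkl (-0.40, 0.0462), the gene of the necroptosis pore protein, fell. Fadd and Mlkl each missed the threshold under 8 of 14 alternatives (edgeR or limma voom adjusted p up to 0.156 and 0.137). Ripk3 (log2 0.22, edgeR adjusted p = 0.137) did not pass.

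None of the 11 genes of the other eIF2 kinases and the stress response beyond PKR passed, 1 of them, Prkra, higher at an unadjusted p under 0.05, against 31.9% of all genes tested at that threshold in either direction (edgeR; 1 passed with DESeq2 and none with limma voom; median log2 -0.03). Ppp1r15a, the gene of a phosphatase subunit that restores eIF2, stood at 115.7 CPM in LSPCT replicate 1 and at 7.56 and 9.73 CPM in LSPCT replicates 2 and 3, against 30.5, 29.5 and 13.3 CPM in LSPC replicates 1 to 3. LSPCT replicate 1 alone was above the LSPC libraries, and the log2 difference was 0.86 with it (edgeR adjusted p = 0.582) and -1.49 without it. Without that library 3 genes of the list fell, Ppp1r15a, Atf4 and Ddit3 (edgeR adjusted p = 0.0166, 0.00651 and 0.0183). Calls grew over all genes too in that run: 3268 passed, 1636 of them falling, against 2189 and 1049 with all libraries. With all libraries Atf4, the transcription factor gene whose translation depends on eIF2, differed by log2 -0.27 and Ddit3 by -0.46 (edgeR adjusted p = 0.213 and 0.333). Among 11 genes of RNA editing and nucleic acid disposal, 1 rose and 1 fell, a passing share near the 17.2% over all genes tested. Trex1, which encodes the exonuclease that removes cytosolic DNA, rose (log2 0.55, edgeR adjusted p = 0.00966). Slc19a1, a folate carrier gene whose product also imports cyclic dinucleotides in human cells, fell (log2 -0.64, edgeR adjusted p = 0.00652). Adarb1, the other editing enzyme gene, stood at 1.71 ± 0.21 CPM in LSPCT libraries and 1.55 ± 0.26 CPM in LSPC libraries (SD, n = 3 each) and did not pass.

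Of 14 genes listed as brakes on sensing, a role not measured here, 5 rose and none fell (median log2 0.35). Besides the ubiquitin-editing genes Tnfaip3 (log2 2.92) and Cyld (0.59), these were Usp18 (2.45), which blocks the interferon receptor, Isg15 (2.11) and Dak (0.41), whose product inhibits MDA5 in human cells. Isg15 had 7.64 ± 2.18 CPM in LSPCT libraries and 1.76 ± 0.40 CPM in LSPC libraries (SD, n = 3 each; edgeR adjusted p = 0.00324). Dak missed the threshold under 8 of 14 alternatives, and Cyld without LSPC replicate 1 (log2 0.53, edgeR adjusted p = 0.0666). Nlrx1, the gene of a mitochondrial inhibitor of MAVS, had groups that did not overlap but missed the threshold (log2 0.41, edgeR adjusted p = 0.0860).

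The profile of the 10 genes over the 6 libraries, as the mean of their centred log2 CPM, was 0.33, 0.34 and 0.47 in LSPCT replicates 1 to 3 and -0.43, -0.41 and -0.30 in LSPC replicates 1 to 3. The genes outside the set closest to this profile were Esyt2, Trim12a and Plgrkt, with root-mean-square differences of 0.04, 0.05 and 0.06 in log2 units over the 6 libraries. They stood at 102 ± 7.51, 47.8 ± 3.0 and 52.3 ± 4.33 CPM in LSPCT libraries and at 59.1 ± 2.84, 29.5 ± 1.69 and 32.0 ± 0.43 CPM in LSPC libraries, in that order (SD, n = 3 each).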

How the data were processed

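RNA was sequenced from 6 mouse libraries, 3 LSPCT and 3 LSPC, grouped by sample title. The deposited files hold the authors' raw counts per gene symbol. The tools named, without role or order, per the submitters' processing notes are TopHat2 2.1.0, featureCounts, DESeq2 and FastQC, and the build is mm9. The sources used here do not give annotation, strand setting or treatment of multiply mapped reads, so antisense or copied genes may share reads. From the counts, TMM factors (0.986 to 1.007), filterByExpr (minimum 10 counts) and edgeR 4.0.16 (R 4.3.3) quasi-likelihood F tests, group as the only term, were run on all genes. SE was computed from the fold change and F, and 95% intervals use the fit's degrees of freedom. The pseudocount for log2 CPM was 2. The test was tried on simulated counts. DESeq2 1.42.0 and limma voom 3.58.1 were alternatives, with other scaling and filters, a replicate block and each library left out. Members, lists, motifs and ratios were chosen with earlier results of these data known. Named genes are the members, Map3k14, up to 4 called genes of smallest p per list, every gene of a count of 5 or fewer, and 3 genes of most similar profile; a list gene that the rule takes is counted but not reported here; others, among them partner genes that did not pass and the markers, were chosen after their values were seen. Chi-square tests between replicates (11.2 to 46.95 per degree of freedom) found no duplicated library.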

Additional observations from a re-analysis of the deposited data

How the results depend on the processing

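The 10 sensor genes kept their direction under the 14 alternatives run. Ddx58, Ifih1, Dhx58, Eif2ak2 and Adar passed under all 14, with log2 fold changes of 1.92 to 2.24, 1.33 to 1.71, 1.13 to 1.27, 0.61 to 0.70 and 0.49 to 0.56. Zbp1 (log2 1.42 to 2.11) and Mavs (-0.57 to -0.45) missed the threshold only when a library was left out. Tmem173 passed with upper quartile factors (log2 0.40), the stricter filter (0.38) and DESeq2 (0.38). Leaving out a library, 5 to 6 members rose and 0 to 1 fell, 1029 to 3268 of all genes passed, 586 to 1632 rising and 443 to 1636 falling. In the same runs 3 to 5 sensor signalling genes, 1 to 3 AIM2 inflammasome genes, 1 to 2 ZBP1 partners, 0 to 3 PKR and eIF2 genes and 3 to 8 brakes passed. DESeq2 called 5 sensor signalling genes, 1 PKR and eIF2 gene and 8 brakes. With the replicate number as a block, 1792 genes passed, against 2189, 1 ZBP1 partner passed, Casp1 (edgeR adjusted p = 0.0551), Mlkl (0.0515), Fadd (0.0965) and Dak (0.0857) lost their calls, and the calls of the 10 sensor genes did not change. The numbers were not taken to pair samples: deviations of same-numbered libraries correlated at 0.12, -0.11 and 0.11, and 3 of 6 libraries correlated best with their own number. The causes were not tested. Groups of 3 limit what smaller changes can be called; for Zbp1 the counts are low as well.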
